A study of Mus musculus with 18 samples.

Results

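The Tmed genes encode the cargo receptors of early secretion, a family of small membrane proteins of the endoplasmic reticulum (ER), the intermediate compartment and the Golgi. The 9 genes described here, Tmed1, Tmed2, Tmed3, Tmed4, Tmed5, Tmed7, Tmed8, Tmed9 and Tmed10, were taken by name from the 54532 genes of the liver expression table. They were chosen by name for a family that was put forward when results of these mice were already known, so the differences between groups that follow are a description of the family and carry no independent support. Liver RNA was sequenced from 18 male mice, 6 in each of 3 groups, of the strain C57BL/6 by the labels and C57BL/6J by the methods of the study. The normal control group (NC) ate Normal chow, the control group (HFD) ate a high-fat diet and was given saline, and the third group (SZ-A) ate the same diet and was given SZ-A, an extract of mulberry twig (Ramulus Mori) made of its alkaloids. The mice were 6 weeks old on arrival and had 1 week of acclimatization, the diets were fed for 14 weeks before treatment, and treatment lasted 8 weeks in the deposited description and 6 weeks in the methods of the study. The labels name no genetic change in any group, and the dose and route of SZ-A in the sequenced mice are not given in the sources used here. For NC6, a mouse of the normal control group by its title, the diet label reads High-fat diet, and it was kept in NC. Its Tmed5 (29.6 FPKM), Tmed4 (44.1 FPKM) and Tmed3 (3.93 FPKM) were those of the other NC mice, whose ranges were 25.1 to 35.3, 39.7 to 44.1 and 3.82 to 4.83 FPKM.

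Proteins of this family span the membrane once, expose a domain to the lumen that meets cargo, and carry a short cytoplasmic tail that binds the coats of transport vesicles. COPII is the coat of vesicles that leave the ER and COPI that of vesicles that return to it. The proteins act as mixed oligomers of 4 subfamilies, alpha (Tmed4 and Tmed9), beta (Tmed2), gamma (Tmed1, Tmed3, Tmed5 and Tmed7) and delta (Tmed10), and they are known for the export of proteins with a glycosylphosphatidylinositol (GPI) anchor and for the sorting of secreted cargo. The liver is one of the most active secretory organs, since hepatocytes make most plasma proteins. Tmed8 shares the lumenal type of domain with the family but was placed in no subfamily here.

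The values are FPKM, fragments on a gene scaled to its whole exonic length and to a library size. This length exceeds that of the longest coding transcript unevenly. It is 8839 against 1436 bases for Tmed7, 5811 against 1482 for Tmed10 and 2527 against 2074 for Tmed2. The order of genes and their shares therefore hold for FPKM and could differ with another length. Of 8 hepatocyte markers, 8 had a mean of at least 1 FPKM. Fragments on genes, worked back from the table, ranged from 17163191 to 20493907 per mouse. A difference was called where limma gave a Benjamini-Hochberg adjusted p under 0.05 over all 10216 tested genes and the fold change was over 1.2. Of the 9 members, 8 passed the filter of a mean of 1 FPKM over the 18 mice. Tmed8 did not, and its levels are given without a test. In whole liver, fewer cells of a type and less RNA per cell cannot be told apart.

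The promoters of 4 members are shown because these genes carry the main contrasts of the family. Tmed5 and Tmed4 were lower in mice on the high-fat diet, Tmed3 was higher, and Tmed10 varied least among mice. The windows are the 250 bases before the RefSeq start on GRCm38.p6, written 5′ to 3′ on the strand of the gene. Capitals mark ACGTGG, the core letters bound by ER stress transcription factors of the XBP1 and ATF6 type.
Tmed5 promoter window, chr5:108132621-108132870, minus strand: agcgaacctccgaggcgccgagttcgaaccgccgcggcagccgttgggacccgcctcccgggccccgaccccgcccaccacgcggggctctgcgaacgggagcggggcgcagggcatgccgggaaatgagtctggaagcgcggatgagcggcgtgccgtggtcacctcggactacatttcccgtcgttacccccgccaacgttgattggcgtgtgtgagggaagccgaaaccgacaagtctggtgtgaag
Tmed4 promoter window, chr11:6274838-6275087, minus strand: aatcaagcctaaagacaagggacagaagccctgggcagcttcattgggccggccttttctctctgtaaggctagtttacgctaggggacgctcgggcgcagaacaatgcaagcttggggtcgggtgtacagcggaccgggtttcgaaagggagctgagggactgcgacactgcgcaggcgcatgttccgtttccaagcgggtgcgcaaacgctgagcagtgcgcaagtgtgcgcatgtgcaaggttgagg
Tmed3 promoter window, chr9:89705044-89705293, minus strand: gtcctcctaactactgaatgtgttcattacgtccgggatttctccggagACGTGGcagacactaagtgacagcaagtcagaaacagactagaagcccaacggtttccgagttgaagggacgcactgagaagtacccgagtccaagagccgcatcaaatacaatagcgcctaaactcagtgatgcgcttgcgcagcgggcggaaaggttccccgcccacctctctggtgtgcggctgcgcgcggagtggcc
Tmed10 promoter window, chr12:85374718-85374967, minus strand: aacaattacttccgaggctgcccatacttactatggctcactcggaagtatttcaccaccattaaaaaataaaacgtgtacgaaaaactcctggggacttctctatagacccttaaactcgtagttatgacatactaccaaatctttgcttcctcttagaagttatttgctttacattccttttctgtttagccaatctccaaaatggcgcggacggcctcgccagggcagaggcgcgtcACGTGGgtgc
Windows were found for 7 of the 9 members, 8 windows in all because Tmed1 has a pair of starts. ACGTGG was searched on both strands. It was found once in the window of Tmed3, starting 201 bases before the start, and once in that of Tmed10, starting 10 bases before it. In GENCODE Tmed10 reaches chr12:85374847, so its match lies inside the annotated gene, while that of Tmed3 lies outside its gene. Of the other windows shown, parts of those of Tmed3 and Tmed4 also lie inside the annotated gene, and that of Tmed5 does not. Of all 32851 promoter windows of the same length, 6.91% held ACGTGG. The letters CCAAT, bound by NF-Y, were present in the windows of 5 members, Tmed1, Tmed4, Tmed5, Tmed9 and Tmed10, and in 33.9% of all windows. In Tmed5 they lay 46 bases before the start and on the other strand. The spaced ER stress element, in which CCAAT is followed after 9 bases of any kind by CCACG, was present in no window of a member and in 0.113% of all windows. This longer motif contains CCAAT. The GC content of the windows shown was 68.4% for Tmed5, 58.8% for Tmed4, 56.4% for Tmed3 and 44.8% for Tmed10, beside a median of 52.4% over all windows. A match describes the letters of the window and does not show that a factor binds there.

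In mice on Normal chow the family spanned a wide range of levels. Tmed2, the single beta member and a core subunit of the oligomers, was highest at 58.2 ± 5.52 FPKM (SD, n = 6). Tmed4 followed at 42.5 ± 1.60 FPKM and Tmed5 at 29.4 ± 3.58 FPKM. Each of these 3 genes was above the next in 6 of 6 NC mice, and their ranges did not overlap. Tmed10, the single delta member, stood at 18.2 ± 0.786 FPKM, Tmed9 at 15.6 ± 1.93 FPKM and Tmed7 at 13.8 ± 1.06 FPKM, with neighbours overlapping in range. Tmed1 was at 8.97 ± 1.46 FPKM, Tmed3 at 4.15 ± 0.430 FPKM and Tmed8 at 0.634 ± 0.118 FPKM. The remaining genes of the family, Tmed6 and Tmed11, were almost without fragments. Tmed6 had 1 fragment in 1 NC mouse and none in the other 17 mice, and Tmed11 had none in any of the 18. A count of 0 allows up to 3 fragments, or up to 0.213 FPKM of Tmed6 and 0.243 FPKM of Tmed11 in the library where the limit is highest. This limit covers counting error only.

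**Figure D1:**
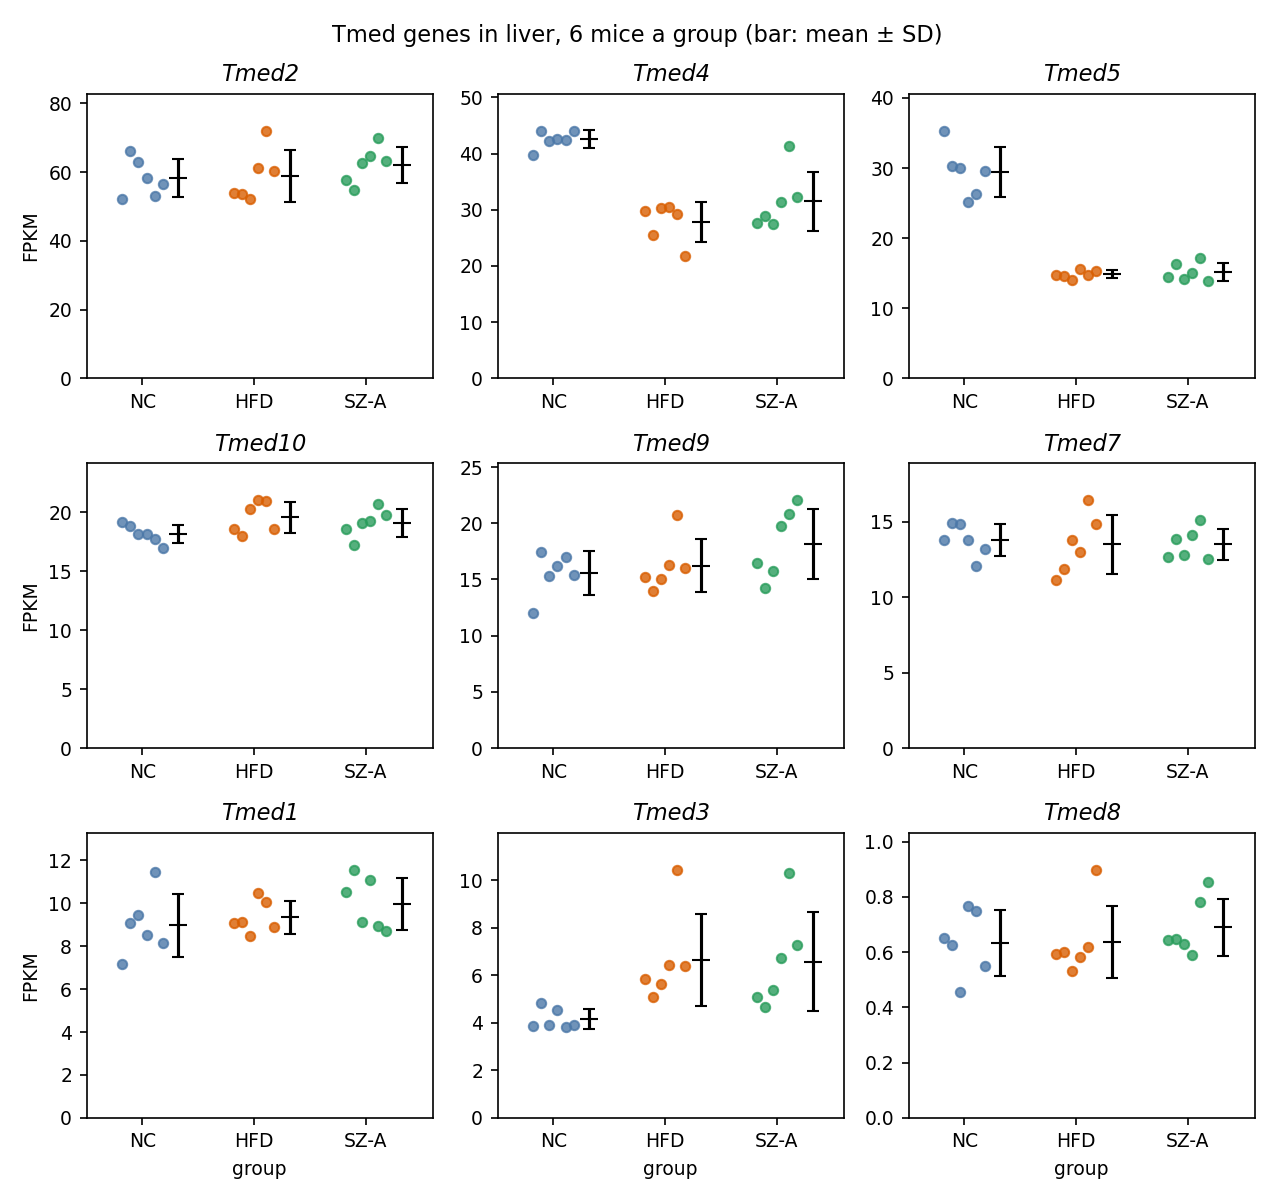
FPKM (y axis, from 0, a scale for each gene) of the 9 Tmed genes in each of 6 NC, 6 HFD and 6 SZ-A mice (points), with the group mean ± SD beside them. Tmed5 of every HFD and SZ-A mouse lies between 13.9 and 17.2 FPKM, below the lowest NC mouse at 25.1 FPKM, whereas Tmed2, Tmed7, Tmed9 and Tmed10 overlap between groups.

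On the high-fat diet the order changed. In HFD mice Tmed2 (58.8 ± 7.49 FPKM) and Tmed4 (27.8 ± 3.50 FPKM) were still first and second, but Tmed5 moved from rank 3 to rank 5 at 14.9 ± 0.541 FPKM, below Tmed10 (19.6 ± 1.33 FPKM) and Tmed9 (16.2 ± 2.35 FPKM). Tmed9 was above Tmed5 in 5 of 6 HFD mice and Tmed5 above Tmed7 (13.5 ± 1.95 FPKM) in 5 of 6, and the ranges of these neighbours overlapped. Tmed1 (9.35 ± 0.765 FPKM) and Tmed3 (6.64 ± 1.92 FPKM), clearly apart in NC mice, overlapped in range. In SZ-A mice the order was that of HFD mice. Tmed10 was above Tmed9 in only 3 of 6 of them.

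The first comparison sets HFD mice against NC mice, which differed in diet. Saline is named for the HFD group and not for NC, so diet and dosing cannot be told apart. Compared with the NC group, 3 of the 8 tested members were called in HFD mice, Tmed5 and Tmed4 lower and Tmed3 higher. Of all tested genes 20.2% were called in this comparison, 10.7% higher and 9.49% lower. The same 3 members had ranges that did not overlap between the groups, which held for 10.5% of all tested genes. The median log2 fold change was 0.03 over the 8 tested members and -0.03 over all tested genes.

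Tmed5, a gamma member, was about 0.505 times its NC level in HFD mice. It ranged from 25.1 to 35.3 FPKM in NC mice (median 29.8) and from 14.1 to 15.6 FPKM in HFD mice (median 14.8). All 6 HFD mice were below all 6 NC mice, and the HFD mice were also close to each other, with a coefficient of variation of 3.64% against 12.2% in NC. The log2 fold change was -0.97 (SE 0.08, 95% interval -1.15 to -0.80) with a limma adjusted p of 2.15e-05. These values rest on 2033 to 4778 fragments per mouse of these 2 groups.

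Tmed4, an alpha member, was 0.655 times its NC level. It ranged from 39.7 to 44.1 FPKM in NC mice (median 42.5) and from 21.8 to 30.5 FPKM in HFD mice (median 29.5). The groups did not overlap, and HFD6 was the lowest mouse. The log2 fold change was -0.62 (SE 0.09, 95% interval -0.81 to -0.43; limma adjusted p = 0.000494). Its alpha partner Tmed9 was at 16.2 ± 2.35 FPKM in HFD against 15.6 ± 1.93 FPKM in NC mice, a log2 fold change of 0.05 that was not called. The ratio of Tmed4 to Tmed9 within a mouse was 2.76 ± 0.298 in NC and 1.74 ± 0.282 in HFD mice. A ratio within a mouse does not depend on how the library was scaled.

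Tmed3, a gamma member and one of the less abundant, was higher on the diet. It ranged from 3.82 to 4.83 FPKM in NC mice (median 3.92) and from 5.11 to 10.4 FPKM in HFD mice (median 6.12). All 6 HFD mice were above all 6 NC mice, and HFD5 stood far above the other HFD mice, whose highest value was 6.45 FPKM. The log2 fold change was 0.63 (SE 0.15, 95% interval 0.32 to 0.95; limma adjusted p = 0.00838), and it was 0.50 without HFD5, where it was still called. Tmed3 rests on 176 to 550 fragments per mouse in these groups.

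The other 5 tested members had log2 fold changes between -0.04 and 0.10, with limma adjusted p between 0.277 and 0.946. Tmed2 had a log2 fold change of 0.01 (95% interval -0.19 to 0.21), Tmed7 of -0.04 (-0.24 to 0.17), Tmed1 of 0.07 (-0.15 to 0.29) and Tmed10 of 0.10 (-0.04 to 0.25). The scaling matters for these small differences. The summed FPKM of a library was 402436 to 489187 in NC and 353946 to 424825 in HFD mice, and with every library set to a common sum the median of all tested genes moved from -0.03 to 0.15 and Tmed10 was called as well, at a log2 fold change of 0.30. Tmed5, Tmed4 and Tmed3 were called under either scaling. Tmed8 was at 0.638 ± 0.130 FPKM in HFD mice, a log2 difference of 0.01 from NC that was not tested.

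**Figure D2:**
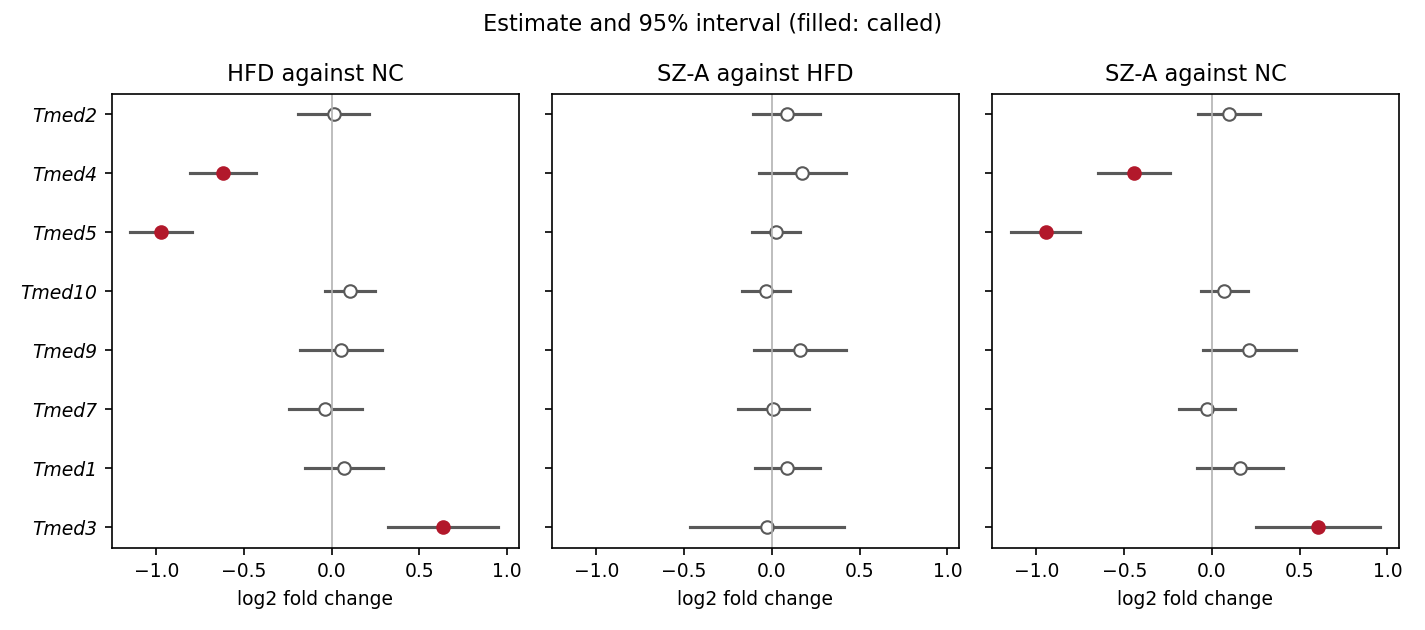
Log2 fold change (x axis, points) with its 95% interval (lines) of the 8 tested Tmed genes in the 3 comparisons, from limma on log2(FPKM + 0.1). Filled points mark called genes, which are Tmed4, Tmed5 and Tmed3 in both comparisons with NC, and none of the 8 in SZ-A against HFD.

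The second comparison asks what SZ-A changed in mice kept on the high-fat diet. By limma 0 of the 8 tested members were called, and 0 had an unadjusted p under 0.05. Limma voom on the whole fragments, with the library sizes of the FPKM, gave the same 0 and 0. Of all tested genes 0.147% were called, 15 genes, a count that was 2 to 49 with a mouse left out, 0 with no filter or with the replicate number as a block, and 233 with sample weights. The study itself reported many more genes for this comparison at the same thresholds, by its count-based test, which was not repeated here. No member had ranges that were apart between SZ-A and HFD mice, which held for 1.28% of all tested genes. Tmed5 was at 15.2 ± 1.33 FPKM in SZ-A and 14.9 ± 0.541 FPKM in HFD mice, and its log2 fold change of 0.02 had a 95% interval of -0.11 to 0.16. The upper bound corresponds to 1.12 times the HFD level. Tmed4 ranged from 27.6 to 41.4 FPKM in SZ-A mice (median 30.1), and its log2 fold change against HFD was 0.17 (95% interval -0.07 to 0.42). One mouse, SZ-A5, was as high as NC mice in Tmed4, and without it the log2 fold change was 0.09. Tmed3 ranged from 4.67 to 10.3 FPKM (median 6.05), and its log2 fold change of -0.03 had the widest interval of the family, -0.46 to 0.41. Tmed9, at 18.2 ± 3.12 FPKM in SZ-A mice, had a log2 fold change of 0.16 (95% interval -0.10 to 0.42). Rescaling to a common sum moved the median of all genes to -0.15 and the log2 fold changes of Tmed1, Tmed2, Tmed4, Tmed5, Tmed7 and Tmed9 below 0, with none of the 8 members called and 2 at an unadjusted p under 0.05.

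The third comparison sets SZ-A mice against NC mice and shares the NC mice with the first and the SZ-A mice with the second, so its values are not separate evidence. In it 3 of the 8 tested members were called, the same 3 genes in the same directions, beside 9.6% of all tested genes, 5.31% higher and 4.3% lower. Tmed5 ranged from 13.9 to 17.2 FPKM in SZ-A mice (median 14.7) and was 0.515 times its NC level, with a log2 fold change of -0.95 (SE 0.09; limma adjusted p = 0.000182). It was the 1 member whose ranges did not overlap, as for 5.5% of all tested genes. Tmed4 was 0.741 times its NC level, with a log2 fold change of -0.45 (SE 0.10; limma adjusted p = 0.0117), and 5 of 6 SZ-A mice were below all NC mice. Tmed3 had a log2 fold change of 0.60 (SE 0.16; limma adjusted p = 0.0356), and 5 of 6 SZ-A mice were above all NC mice. The call of Tmed3 was lost without any one of NC1, NC3, NC4, NC5, NC6, SZ-A4 and SZ-A6, where the adjusted p ranged from 0.0515 to 0.0797 and the log2 fold change from 0.57 to 0.63.

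The makeup of the family within a mouse does not depend on how its library was scaled. The 9 genes summed to 191 ± 8.69 FPKM in NC, 167 ± 15.5 FPKM in HFD and 177 ± 16.3 FPKM in SZ-A mice. Tmed5 made up 15.4 ± 2.04% of the sum in NC mice, 8.94 ± 0.740% of it in HFD mice and 8.60 ± 0.794% of it in SZ-A mice. Tmed4 made up 22.2 ± 0.893%, 16.7 ± 2.18% and 17.7 ± 1.32%. Tmed2 made up 30.4 ± 1.59%, 35.1 ± 1.72% and 35.2 ± 1.30%, while its level overlapped between groups, since a share depends on the other members too. Tmed3 made up 2.17 ± 0.172%, 3.92 ± 0.723% and 3.66 ± 0.789%. Within the gamma subfamily, the ratio of Tmed3 to Tmed5 averaged 0.143 ± 0.0250 for NC, 0.446 ± 0.130 for HFD and 0.431 ± 0.115 for SZ-A mice. The highest ratio in NC, 0.181, was below the lowest in HFD, 0.349, and the lowest in SZ-A, 0.287. The gamma subfamily as a whole made up 29.5 ± 1.73%, 26.5 ± 0.773% and 25.6 ± 1.71%. The shares come from the same levels and are not separate evidence.

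**Figure D3:**
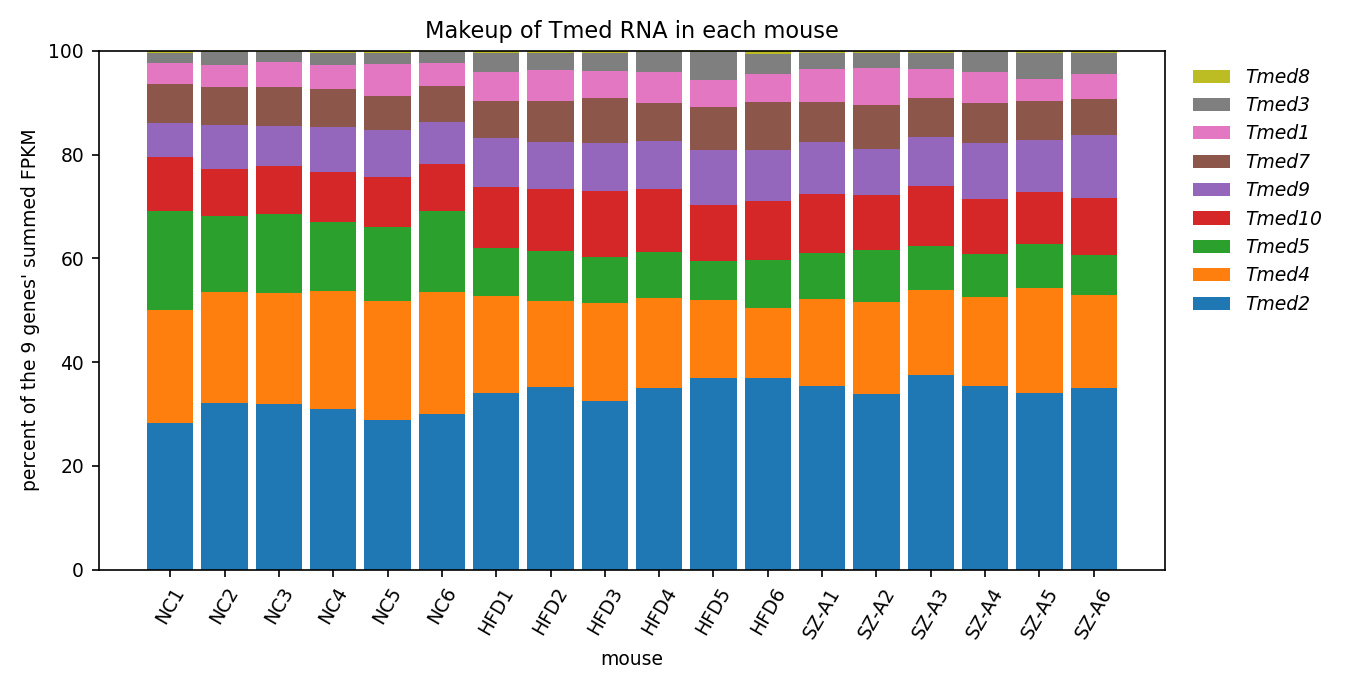
Percent of the summed FPKM of the 9 Tmed genes (y axis) taken by each gene in each of the 18 mice (x axis, stacked bars, NC, HFD and SZ-A mice in order). The green band of Tmed5 takes 13.4% to 19.2% in NC mice and 7.56% to 10.1% in the other 12 mice.

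Among mice of the same group the members varied in sets. With group means removed, Tmed2, Tmed3 and Tmed9 went together across the 18 mice, with a Pearson r of 0.83 for Tmed2 with Tmed3, 0.82 for Tmed3 with Tmed9 and 0.76 for Tmed2 with Tmed9. Tmed10 had an r of 0.70 with Tmed3 and 0.58 with Tmed2, and Tmed7 an r of 0.70 with Tmed2. Tmed4 had an r of 0.61 with Tmed3 and 0.565 with Tmed10. These relations were not even between groups. For NC, HFD and SZ-A mice the r was 0.69, 0.95 and 0.92 for Tmed2 with Tmed3. It was 0.51, 0.998 and 0.85 for Tmed3 with Tmed9, where HFD5 was far above the other HFD mice in both genes. For Tmed9 with Tmed10 it was -0.355, 0.67 and 0.86. Tmed5 stood outside this set, with an r between -0.30 and 0.36 with the other 8 members, and so did Tmed1 (-0.25 to 0.17). Tmed4 and Tmed5, which were lower together on the diet, had an r of 0.15 within groups, and of -0.50 for NC, -0.29 for HFD and 0.65 for SZ-A mice. Genes of a mouse share its library and its scaling, so these values are a description.

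**Figure D4:**
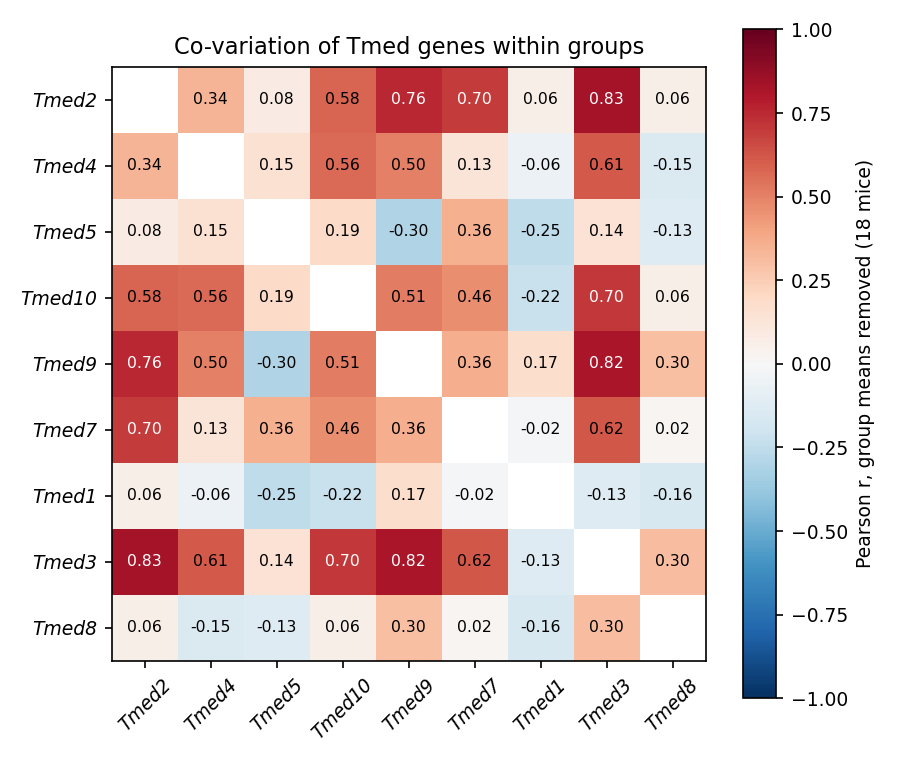
Pearson r between Tmed genes across 18 mice after the mean of each group was removed (colour, from -1 to 1, with the value in each cell). Tmed2, Tmed3, Tmed9 and Tmed10 have values of 0.51 to 0.83 with each other, and Tmed1, Tmed5 and Tmed8 have values between -0.30 and 0.36 with all other members.

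The 5 tested genes with the highest Pearson correlation with the mean z-score of the 8 tested members over the 18 mice were Dpagt1 (r = 0.90), Morf4l2 (r = 0.89), Surf4 (r = 0.88), Ssr2 (r = 0.86) and Spcs2 (r = 0.86). Dpagt1 makes the first step of the lipid-linked sugar used for N-glycosylation, Surf4 is another cargo receptor of the ER, Ssr2 is a subunit of the translocon-associated complex and Spcs2 a subunit of signal peptidase. Surf4, Ssr2 and Spcs2 are in the lists of early secretory genes given below, and Morf4l2 and Dpagt1 are in none of them. Surf4 was at 70.3 ± 3.90 FPKM in NC, 67.0 ± 8.43 FPKM in HFD and 74.7 ± 9.12 FPKM in SZ-A mice, above every Tmed gene in group mean. With group means removed the r was 0.90 for Surf4 and 0.91 for Ssr2.

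Several members also varied with the unfolded protein response, the programme that raises chaperones and folding enzymes when proteins build up in the ER. Its level was taken as the mean z-score of 25 genes, none of which is a Tmed gene, and all 9 members were compared with it. This comparison was chosen after values were seen. How many of all tested genes vary as closely with this score was not counted. The relation is therefore not shown to be particular to the family. The permutations moved mice freely between groups, so each permutation p also takes in differences between groups. Hspa5, the main ER chaperone and one of the 25, was at 84.3 to 304 FPKM in NC, 152 to 797 FPKM in HFD and 139 to 538 FPKM in SZ-A mice, and it was highest in HFD5, SZ-A5 and SZ-A6. Across the 18 mice Tmed3 had a Pearson r of 0.85 (permutation p = 3e-05, two-sided, adjusted over the 9 relations 0.000135) and a Spearman rho of 0.78 (permutation p = 0.00023, adjusted 0.00103). Within groups its r was 0.59 for NC, 0.92 for HFD and 0.93 for SZ-A mice, and 0.77 over all mice without HFD5 and NC5, which lay farthest from the median. Its ranges in NC and HFD mice were apart, and with group means removed the r was 0.83. Tmed2 had an r of 0.82 (permutation p = 3e-05, adjusted 0.000135) and a rho of 0.79 (permutation p = 0.00018, adjusted 0.00103), with 0.72, 0.91 and 0.95 within the groups and 0.76 without those 2 mice. Tmed9 had an r of 0.70 (permutation p = 0.00142, adjusted 0.00319) and a rho of 0.63 (permutation p = 0.00546, adjusted 0.0123), but the relation was not seen in NC mice, where r was 0.08, beside 0.93 in HFD and 0.92 in SZ-A mice, and it was 0.81 without HFD5 and NC5. Tmed10 had an r of 0.70 (permutation p = 0.00125, adjusted 0.00319) and a rho of 0.66 (permutation p = 0.00406, adjusted 0.0122), with 0.31, 0.56 and 0.99 within the groups and 0.60 without the 2 mice. Tmed7 had an r of 0.61 (permutation p = 0.0071, adjusted 0.0128) and a rho of 0.47 (permutation p = 0.0529, adjusted 0.0952), and without HFD5 its r was 0.48 and no longer passed the threshold. Its r was 0.40 without HFD5 and NC5, and within groups it was 0.85 for NC, 0.94 for HFD and 0.26 for SZ-A mice. For Tmed1 (r = -0.05, permutation p = 0.85; rho = -0.02, permutation p = 0.954) and Tmed8 (r = 0.25, permutation p = 0.322; rho = 0.25, permutation p = 0.319) neither passed the threshold. Nor did they for Tmed5 (r = -0.45, permutation p = 0.0642, adjusted 0.0964; rho = -0.41, permutation p = 0.0931, adjusted 0.14), whose NC mice lay apart from all other mice, or for Tmed4 (r = -0.25, permutation p = 0.323, adjusted 0.364; rho = -0.22, permutation p = 0.38, adjusted 0.427). With group means removed the r was 0.03 for Tmed5 and 0.27 for Tmed4. Within groups Tmed5 had an r of -0.06 for NC, 0.20 for HFD and 0.06 for SZ-A mice, and Tmed4 of 0.11, -0.11 and 0.78.

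**Figure D5:**
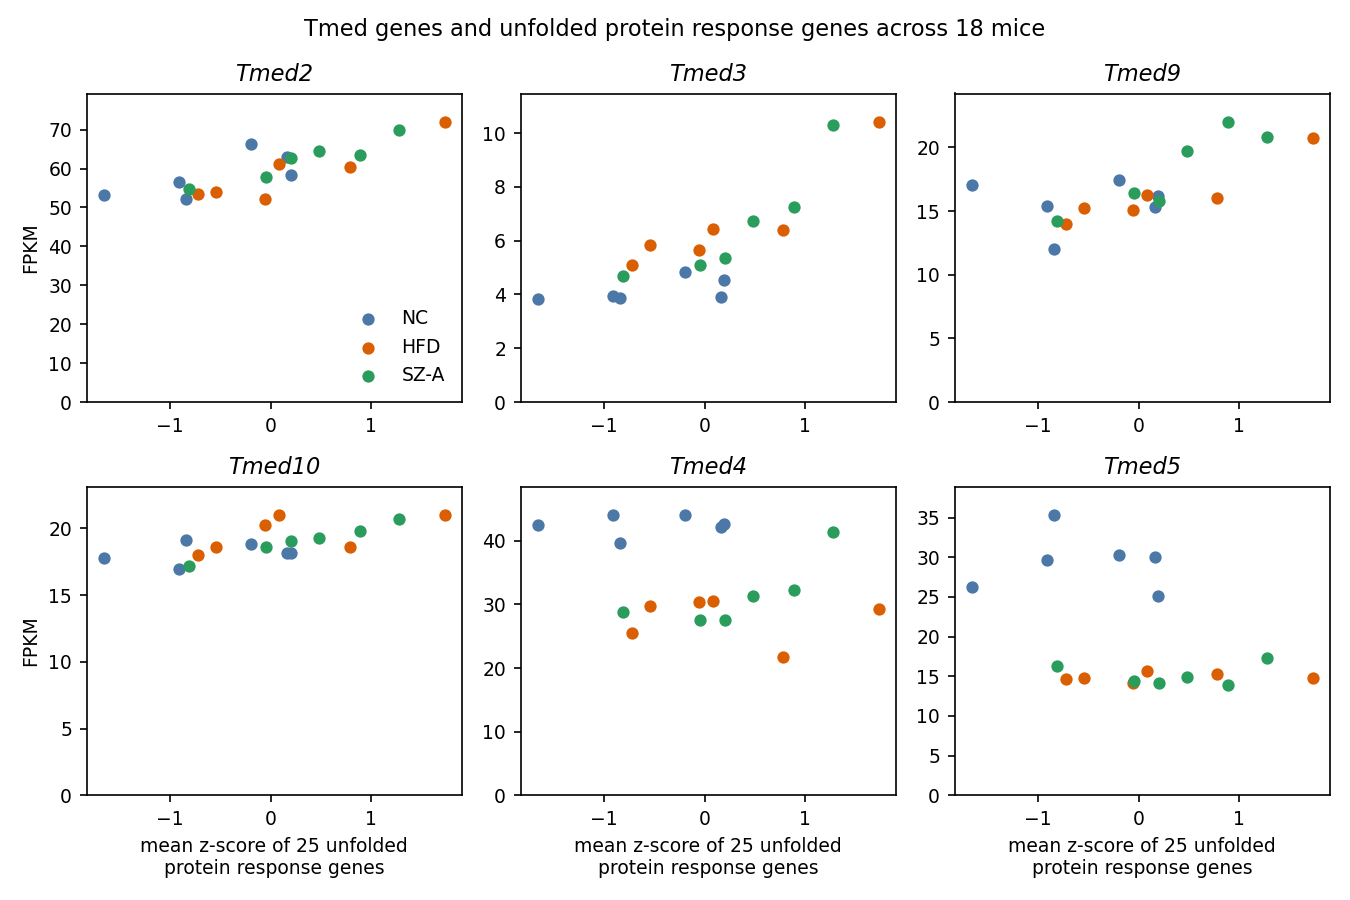
FPKM (y axis, from 0) of 6 Tmed genes against the mean z-score of 25 unfolded protein response genes (x axis) in NC, HFD and SZ-A mice (colours, 1 point a mouse). Tmed2 and Tmed3 are highest in HFD5 and SZ-A5, the mice with the highest scores, and Tmed10 is highest in HFD4, at 21.0 FPKM and a score of 0.083, whereas Tmed5 of HFD and SZ-A mice stays between 13.9 and 17.2 FPKM at any score.

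The rest of the early secretory route is given from 7 lists of 121 genes, 119 of them tested. In HFD against NC mice 17 of the 119 were called, 14.3% beside 20.2% of all tested genes, with 6 higher and 11 lower. This count was 10 without NC2, 10 without HFD1, 11 without HFD2, 11 with no filter on low values and 7 with the replicate number as a block. Of the COPII coat, 1 of 18 tested genes was called higher, 1 lower and 16 were not called. Its inner coat subunit Sec23a was lower (29.9 ± 2.67 FPKM in NC, 20.8 ± 2.26 FPKM in HFD, log2 fold change -0.52, limma adjusted p = 0.00147), and the paralog Sec23b was higher (4.28 ± 0.420 against 5.97 ± 1.04 FPKM, log2 fold change 0.46, limma adjusted p = 0.00874). Of the COPI coat, 0 of 17 were higher and 3 lower, among them the coat subunits Copb1 (log2 fold change -0.38) and Copb2 (-0.29). Of the other cargo receptors, 2 of 18 tested were higher and 1 lower, with Ergic1 at a log2 fold change of 0.28 and Bcap29 at -0.44. Of the tethers and SNAREs, which bring vesicles to their target and fuse them, 0 of 18 were higher and 2 lower, the SNARE Use1 (-0.39) and the small GTPase Rab2a (-0.30).

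Proteins with a GPI anchor are the best known cargo of the family. Of 8 tested genes that attach or remodel the anchor, 1 was higher and 2 lower, with the transamidase subunit Gpaa1 at a log2 fold change of -0.37 and Pgap2, a remodelling factor, at 0.36. Of the translocon and signal peptidase, through which secreted proteins enter the ER, 1 of 15 was higher (Sec61b, 0.54) and 1 lower (Ssr4, -0.28). Of the 25 unfolded protein response genes, 1 was higher (Edem1, which helps clear misfolded proteins, 0.51), and 1 lower (Creb3l3, a liver transcription factor, -0.29). The median of this list was 0.51 on the log2 fold change scale, beside -0.03 over all tested genes, while 23 of its genes were not called.

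In SZ-A against HFD mice 0 of the 119 genes were called by limma. The genes with the smallest p in each list had limma adjusted p of 0.16 or more, and among them were Yif1a (log2 fold change 0.30), Cope (0.31), Preb (0.27), Sec13 (0.26), Mcfd2 (0.22), Use1 (0.27), Golga2 (0.14), Arf1 (0.15), Pgap1 (0.22), Pgap2 (-0.24), Ssr4 (0.25), Ssr2 (0.23), Creb3l3 (0.26) and Atf4 (0.23). In SZ-A against NC mice 8 of the 119 were called, 6.72% beside 9.6% of all tested genes, with 6 higher and 2 lower, and 5 were called without SZ-A6. Sec23a (-0.45), Sec23b (0.39), Bcap29 (-0.59), Sec61b (0.75) and Edem1 (0.43) were called in the direction they had in HFD against NC, a comparison that shares the NC mice.

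The positions are those of the table, which match GENCODE on GRCm38 for all 9 genes. Tmed5 (ENSMUSG00000063406) spans chr5:108106366-108132620 on the minus strand and has 4 exons in its longest coding transcript. Tmed4 (ENSMUSG00000004394) spans chr11:6270369-6274870 on the minus strand, with 5 exons, and Tmed3 (ENSMUSG00000032353) spans chr9:89699206-89705068 on the minus strand, with 3 exons. Whether the library kept strand is not given in the sources used here, so fragments of overlapping genes cannot be told apart. Tmed5 overlaps 2639 bases of Mtf2, a gene of the opposite strand that was at 0.937 ± 0.0765 FPKM in NC and 0.904 ± 0.112 FPKM in HFD mice. Tmed1 overlaps 207 bases of Dnm2, at 8.66 ± 0.760 FPKM in NC and 8.91 ± 0.427 FPKM in HFD mice. Tmed4 overlaps 114 bases of the rRNA gene n-R5s67, at 0.879 ± 1.71 FPKM in NC and 0.438 ± 0.574 FPKM in HFD mice. Tmed7 overlaps 14299 bases of Ticam2, Tmed8 overlaps Samd15, and Tmed10 overlaps Gm47817, Gm47819 and Gm47820. These 5 genes had group means under 1 FPKM. Tmed10 has a processed pseudogene copy, Tmed10-ps, of which 35.6% of all windows of 150 bases, the read length, occur unchanged in Tmed10 transcripts. Tmed10-ps held 46 to 118 fragments per mouse, beside 1671 to 2427 of Tmed10, and how fragments that fit both were divided is not given in the sources used here, so the value of the pseudogene is uncertain.

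Markers of other cells of the liver were read beside these values. The summed level of 8 hepatocyte markers was 43413 to 61687 FPKM in NC, 29137 to 48293 FPKM in HFD and 34745 to 60452 FPKM in SZ-A mice. The 7 Kupffer cell markers, all at a mean of at least 1 FPKM, summed to 124 to 230 FPKM in NC, 176 to 351 FPKM in HFD and 197 to 271 FPKM in SZ-A mice. The 7 stellate cell markers summed to 35.7 to 55.2, 38.7 to 79.4 and 36.5 to 52.1 FPKM, the 6 endothelial markers to 45.6 to 57.0, 51.6 to 64.7 and 53.8 to 58.5 FPKM, and the 5 cholangiocyte markers to 10.9 to 39.0, 21.8 to 44.3 and 15.1 to 30.1 FPKM. The 5 neutrophil markers summed to 0.687 to 5.33, 4.68 to 17.5 and 3.79 to 15.3 FPKM. The 5 red blood cell markers summed to 193 to 388, 151 to 310 and 235 to 471 FPKM. Markers of T cells (up to 2.32 FPKM in a mouse), B cells (up to 4.49 FPKM) and adipocytes (up to 1.09 FPKM) summed to little. Of 5 pancreas markers Amy2a5 and Pnlip were at 0 in every mouse and 1, Cela1, reached a mean of 1 FPKM, and the list summed to 3.10 to 5.07, 4.45 to 8.76 and 8.58 to 10.6 FPKM. The highest hepatocyte, T cell and adipocyte sums were in NC mice, and the highest sums of all other lists were in mice on the high-fat diet. The part of any of these cells in the values of Tmed5, Tmed4 and Tmed3 was not tested.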

How the data were processed

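Liver RNA of 18 mice was measured by poly-A-selected, paired-end sequencing (NEBNext Ultra, Illumina NovaSeq, reads of 150 bases). The authors deposited 1 table of FPKM for 54532 genes, which also lists the length and position of each gene. The submitters' processing notes name HISAT2 2.0.5 and featureCounts 1.5.0-p3, with the mouse genome GRCm38 (mm10). FPKM times gene length gave whole fragments for 100% of the values, within 0.05 of a fragment, and these gave the depth. The deposited FPKM, not counts, were tested: limma 3.58.1 in R 4.3.3, lmFit and eBayes with trend on log2(FPKM + 0.1), over the 10216 genes with a mean of at least 1 FPKM, each comparison on its own 2 groups, with Benjamini-Hochberg adjustment. A fold change on this scale understates the change of genes of low FPKM. The study's own count-based test was not repeated, and limma voom on the worked-back fragments was run as an alternative. It used the library sizes of the FPKM, so it shares their scaling and does not check it. Data were simulated with these group sizes, the same dispersion for every gene and few changed genes. On them limma called 55 of 65 genes changed by 1.5-fold and 63 of 63 changed by 2-fold. How many would be called among genes of greater spread was not tested.

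Groups were taken from the sample titles. No pair of mice of a group agreed within sampling noise, the lowest chi-square per degree of freedom being 18.6. The members, gene lists and tests were chosen with earlier results of these data known. The genes named are the 9 members, Tmed6 and Tmed11, the 2 genes of each list with the smallest p in HFD against NC and the 2 in SZ-A against HFD, and the 5 genes most like the members. Sec61b, Edem1 and the other pathway genes named for SZ-A against NC are among these. Mtf2, Dnm2, the other genes that overlap a member, Tmed10-ps and Hspa5 were chosen after their values were seen. The comparison of members with the unfolded protein response list was also chosen after values were seen. Other alternatives were pseudocounts of 1 and 0.01, no filter and a minimum of 5 FPKM, a common sum, median-ratio scaling, 1 fit of all 18 mice, no trend, sample weights, a replicate block and each mouse left out in turn. Correlations used 100000 permutations of all 18 mice, without regard to group. Other steps ran in Python 3.11.15 (numpy 2.4.6, pandas 2.3.3, figures by matplotlib 3.10.9). RefSeq gave the promoter windows, and GENCODE vM21 the exons.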

Additional observations from a re-analysis of the deposited data

Results flagged for a closer look

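Within groups of 6 mice, 4 of 27 combinations of a member and a group held a mouse far from the other 5, judged by Dixon's 95% critical value for the gap over the range. Chance flags about 1 in 20 groups. Tmed3 was 10.4 FPKM in HFD5, where the next HFD mouse was at 6.45 FPKM. Tmed9 was 20.7 FPKM in the same mouse, beside 16.2 FPKM for the next. HFD5 also had the highest score of the 25 unfolded protein response genes of all 18 mice, 1.73, and the highest Hspa5, 797 FPKM. Tmed4 was 41.4 FPKM in SZ-A5, beside 32.3 FPKM for the next SZ-A mouse, and that mouse had the second highest score, 1.27. Tmed8 was 0.897 FPKM in HFD6, where the next was at 0.619 FPKM, on 62 to 140 fragments per mouse over all groups. What sets these mice apart was not tested.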

How the results depend on the processing

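Under every alternative run for HFD against NC, Tmed5, Tmed4 and Tmed3 stayed called, so that 3 members were called, or 4 with FPKM rescaled to a common sum, which added Tmed10. Leaving out each mouse gave 3 throughout. For SZ-A against HFD 0 members were called under all 24 alternatives, while the count over all genes ran from 0 without a filter or with the replicate block to 233 with sample weights and 2 to 49 with a mouse left out, beside 15. For SZ-A against NC the count was 3 or 2, and 2 to 3 with each mouse left out. Tmed3 lost its call with the replicate block (limma adjusted p = 0.0636) and with no filter on low values (limma adjusted p = 0.112). Without the filter more genes entered both the fit and the adjustment. The replicate numbers did not pair the mice (correlations of same-numbered mice -0.12 to 0.29, 3 of 18 over 0.1). With the replicate block the members called were 3, 0 and 2 in HFD against NC, SZ-A against HFD and SZ-A against NC, and the pathway genes called in HFD against NC were 7 instead of 17, beside 11 without a filter and 10 to 16 with a mouse left out. In SZ-A against HFD 1 pathway gene was called with a common sum and 0 otherwise. In SZ-A against NC 5 pathway genes instead of 8 were called with no filter or without SZ-A6. The correlations of Tmed2, Tmed3, Tmed9 and Tmed10 with the unfolded protein response list kept an adjusted p of 0.016 or less under every scaling, pseudocount and left-out mouse. In SZ-A against HFD rescaling to a common sum turned the sign of 6 small log2 fold changes, none of them called. Depth limits Tmed8 most, at 62 to 140 fragments per mouse.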
